A study of Homo sapiens with 6 samples.

Results

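Small nucleolar RNAs (snoRNAs) are short RNAs of the nucleolus, the nuclear body where ribosomal RNA is made and processed. Box C/D snoRNAs (SNORD genes) guide 2′-O-methylation and box H/ACA snoRNAs (SNORA genes) guide pseudouridylation of ribosomal RNA. In human cells most of them are cut out of introns of longer host transcripts, so the host promoter drives the snoRNA as well. Some hosts encode proteins, often of the nucleolus or the ribosome, and others (ZFAS1, GAS5, SNHG1) are noncoding RNA genes.

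The genes described here are 10 such hosts and nucleolar protein genes: SNX5, ZFAS1, NOP58, NOP56, NCL, NPM1, GAS5, SNHG1, FBL and DKC1. They were taken by name from the 59712 genes of the GRCh38.p14 RefSeq table, in which all 10 were found, 7 of them protein-coding and 3 lncRNA genes. Peaks over the annotated span of a gene or within 1000 bp of it were counted as peaks of that gene. The list was chosen by the presence of these V5 peaks, with their folds known, so its counts and folds are descriptions and carry no test.

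The study sequenced chromatin immunoprecipitated from a clone of HepG2, an established human liver cancer line, that carries V5-tagged TAF2. TAF2 belongs to TFIID, which binds core promoters and helps to bring in RNA polymerase II; V5 is a short peptide that an antibody recognises. The 6 libraries, all of this clone, were 3 from the V5 antibody and 3 controls, titled input DNA but with IgG in their library names. The 3 V5 peak lists, with 1599, 2557 and 1887 peaks in replicates 1, 2 and 3, were analysed here. The controls entered no comparison. Replicates are given only by number, without a statement on separate cultures, and the sequencing depth behind the peaks is unknown.

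A peak was present in all 3 libraries at 7 of the 10 genes: SNX5, ZFAS1, NPM1, NOP58, SNHG1, NCL and NOP56. None of the 3 libraries had a peak at GAS5, FBL or DKC1. No gene of the list was in between, with a peak in 1 or 2 libraries. Over all annotated genes, 1.92% had a peak in at least 2 libraries by the same rule and 1.01% in all 3. The share in at least 2 libraries was 3.75% of protein-coding genes and 1.6% of lncRNA genes. It was 2.06%, and 0.998% in all 3, among protein-coding and lncRNA genes between 3.91 and 37.9 kb long, the lengths of SNHG1 and NOP58, the shortest and the longest gene of the list. Since the list was chosen with these peaks known, nothing is read from the contrast.

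**Figure D1:**
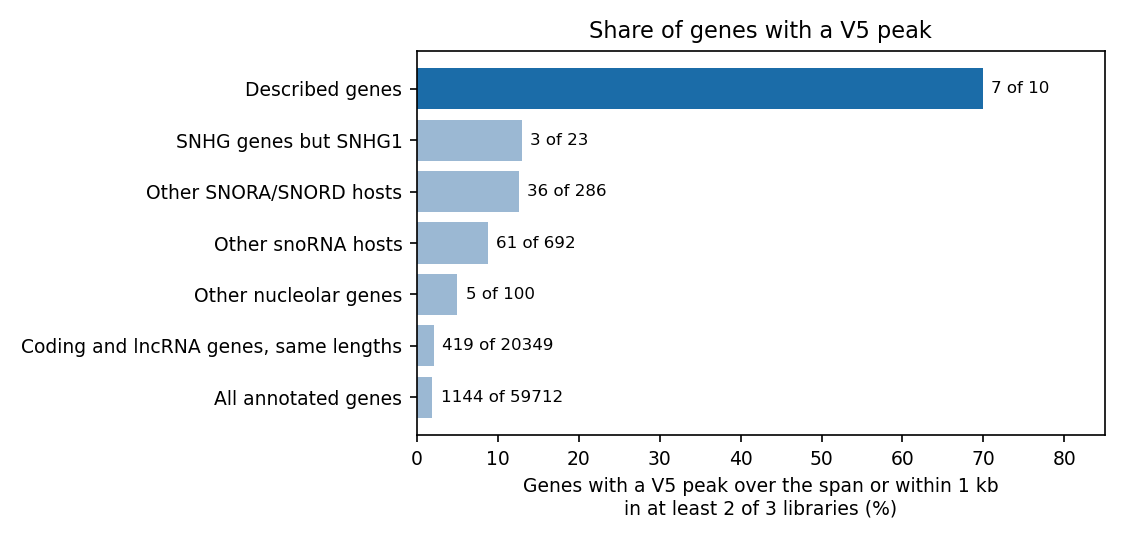
Bars give the percentage of genes with a V5 peak over the span or within 1 kb in at least 2 of the 3 libraries, with the counts beside them, for the 10 described genes and for other gene sets. The 10 genes were chosen with the peaks known, and the 7 of 10 is a description; the other sets lie between 1.92 and 13%.

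The starts of 9 of the 10 genes could be read from the RefSeq promoter windows, which hold 250 bases before each annotated start and 50 from it on. NOP58 has no entry there, and its lower annotated end was used in its place. The sequences around the starts are shown because SNX5, NPM1 and ZFAS1, the genes with the strongest peaks, share their first 5 bases at the starts shown. Each line gives 40 bases before the start and 10 from it on, 5′ to 3′ on the transcribed strand (RefSeq, GRCh38.p14), with the first 5 transcribed bases in capitals. NPM1 is shown at the downstream one of its 2 annotated starts. Its upstream start begins with GGGCG and does not share these bases. NOP58 is not shown.
SNX5 (chr20:17968785-17968834, minus strand): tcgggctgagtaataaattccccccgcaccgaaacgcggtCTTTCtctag
ZFAS1 (chr20:49278602-49278651, plus strand): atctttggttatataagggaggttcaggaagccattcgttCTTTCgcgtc
NPM1 (chr5:171387809-171387858, plus strand): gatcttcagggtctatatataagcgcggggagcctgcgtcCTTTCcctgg
FBL (chr19:39846370-39846419, minus strand): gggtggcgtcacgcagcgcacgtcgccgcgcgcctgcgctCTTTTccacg
SNHG1 (chr11:62855876-62855925, minus strand): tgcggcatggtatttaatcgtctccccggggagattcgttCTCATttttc
NCL (chr2:231464475-231464524, minus strand): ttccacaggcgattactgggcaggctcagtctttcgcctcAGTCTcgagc
NOP56 (chr20:2652592-2652641, plus strand): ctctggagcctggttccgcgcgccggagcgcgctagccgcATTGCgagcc
GAS5 (chr1:173869036-173869085, minus strand): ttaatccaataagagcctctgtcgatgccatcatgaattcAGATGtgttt
DKC1 (chrX:154762824-154762873, plus strand): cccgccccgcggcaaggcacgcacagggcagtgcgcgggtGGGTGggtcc

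Transcripts that begin with C and a run of pyrimidines are known as 5′TOP transcripts, a class that includes ribosomal protein mRNAs and many snoRNA hosts. SNX5, ZFAS1 and NPM1 begin with CTTTC at these starts, as do 0.404% of the 35116 promoter windows of the table. A C followed by 4 pyrimidines, found at 4.07% of starts, was present at these genes and at FBL, which had no peak. The motif TATATAA, a form of the TATA box, was searched on both strands and was found in 2.57% of windows. It matched 25 bases before the NPM1 start, and 31 bases before the ZFAS1 start with an overlapping match of the opposite strand. Neither TATATAA nor TATAAA (11.5% of windows) matched in the windows of SNX5, NCL, NOP56, GAS5, FBL or DKC1, and SNHG1 had TATAAA only downstream of its start, on the opposite strand. GGGCGG, the GC box (45% of windows), matched at ZFAS1, SNHG1, NCL, NOP56, FBL and DKC1. CCAAT (34.6% of windows) matched at NCL, NOP56, FBL, GAS5 and the upstream start of NPM1. Both motifs were searched on both strands. The sequence features were chosen after the sequences and peaks were seen, and a match is not a binding site.

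SNX5, which encodes a sorting nexin of endosomal transport, had the strongest peaks of the list (chromosome 20, 17941600 to 17968794). The authors' fold of its strongest peak, a ratio over the background their caller used, was 13.4, 14.5 and 11.2 in replicates 1, 2 and 3. By fold these peaks had percentiles of 99.4, 99.5 and 99.2 in their lists, where 100 is the strongest peak, with a mean of 99.3 ± 0.17 (SD, n = 3). The fold was highest in replicate 2 and lowest in replicate 3.

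The strongest SNX5 peaks were also wide, at 4286, 7675 and 4915 bp, against a median peak width of 220, 224 and 224 bp in the lists. They lay inside the gene, with summits 1565, 2108 and 1876 bp downstream of its start. Counting smaller neighbours, the gene had 10, 6 and 8 peaks, which covered 33.0, 34.3 and 31.5% of its span. Inside the gene they reached 11.1 kb from the start, and no library had a peak in the remaining part toward the 3′ end. Others lay before the start. SNORD17, the snoRNA gene inside SNX5 (chromosome 20, 17962710 to 17962946), was covered over its whole length in all 3 libraries. It lies 5848 bp downstream of the start. In replicate 3 a separate peak with a fold of 5.50 had its summit inside SNORD17, while in replicates 1 and 2 SNORD17 lay under a wide peak with its summit elsewhere.

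A smaller, separate peak stood at the SNX5 start, where MGME1, the gene of a mitochondrial DNA exonuclease, begins in the opposite direction. The annotated starts lie 224 bp apart. The fold there was 3.64, 4.96 and 5.75 in replicates 1, 2 and 3, at percentiles of 8.13, 42.0 and 70.9, so that this peak ranked low in replicate 1 and well above the median in replicate 3. The 3 summits fell within 60 bp of each other, between the starts. That stretch is shown because it is the place where the libraries put the promoter peak. It runs from the base after the SNX5 start to the base before the MGME1 start on the plus strand, and capitals mark the 61 bases from the lowest to the highest summit.
SNX5-MGME1 (chr20:17968795-17969017): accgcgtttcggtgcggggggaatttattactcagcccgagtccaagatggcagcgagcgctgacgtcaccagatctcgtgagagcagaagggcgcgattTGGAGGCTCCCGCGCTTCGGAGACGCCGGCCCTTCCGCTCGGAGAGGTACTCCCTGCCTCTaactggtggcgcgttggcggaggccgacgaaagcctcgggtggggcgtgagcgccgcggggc

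The peaks of replicates 2 and 3 ran over both starts, and that of replicate 1 over the MGME1 start alone. None of the 4 motifs above matched in this stretch. Further peaks followed inside MGME1 (chromosome 20, 17968590 to 17991122). Beyond the SNX5 start, counting the one between the starts, the locus held 6, 5 and 5 summits, the strongest of them with folds of 6.29, 5.73 and 6.40. Their summits lay 933, 3411 and 3397 bp downstream of the MGME1 start. The whole locus, with 14, 9 and 11 peaks, extended over 17.4, 14.4 and 14.4 kb, with the strongest signal on the SNX5 side in each library.

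ZFAS1 is a noncoding host of box C/D snoRNAs that starts next to the start of the protein-coding gene ZNFX1 (chromosome 20, 49278178 to 49289260). Its strongest peak had folds of 8.37, 8.10 and 10.4 and a mean percentile of 95.3 ± 3.19 (SD, n = 3). It was 4172, 3811 and 6283 bp wide. The ZFAS1 peaks together covered 54.5, 51.6 and 60.1% of the span, the largest share among the 10 genes in each library. They included the start in replicates 1 and 3 and began 227 bp downstream of it in replicate 2. All 3 snoRNA genes inside ZFAS1, SNORD12C, SNORD12B and SNORD12, lay under the wide peak in every library. The summits were 2871 to 3524 bp downstream of the start, past the last of the snoRNA genes, with the nearest 741 bp from SNORD12. The peak therefore covered the snoRNA genes without having its highest point on any of them.

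SNHG1 is the other noncoding host with peaks and holds 9 annotated snoRNA genes in 3.91 kb (chromosome 11, 62851978 to 62855885). Its strongest peak had folds of 7.45, 7.13 and 5.60, at percentiles of 92.1, 85.2 and 67.2. The peaks were small and scattered, and no base of the gene was under a peak in all 3 libraries. Covered in 2 libraries were SNORD25 (replicates 1 and 3), SNORD27 (replicates 1 and 2) and a snoRNA gene without an approved name, LOC124900306 (replicates 1 and 3). SNORD26, SNORD28 and SNORD29 were covered in 1 library each, and SNORD22, SNORD30 and SNORD31 in none. Bases of snoRNA genes were covered somewhat more than the rest of the SNHG1 span in each library, with 40 against 31.2% of bases in replicate 1, 28.5 against 24.9% in replicate 2 and 25.8 against 15.5% in replicate 3. Other hosts with peaks went both ways: all snoRNA bases were covered at SNX5 and ZFAS1, and none at NOP58, NOP56 and NCL. A peak near the SNHG1 start was found in replicate 1 (fold 3.96), just inside the gene, and in replicate 3 (fold 3.67), over the start. Both were weak for their lists, at percentiles of 15.7 and 7.55.

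**Figure D2:**
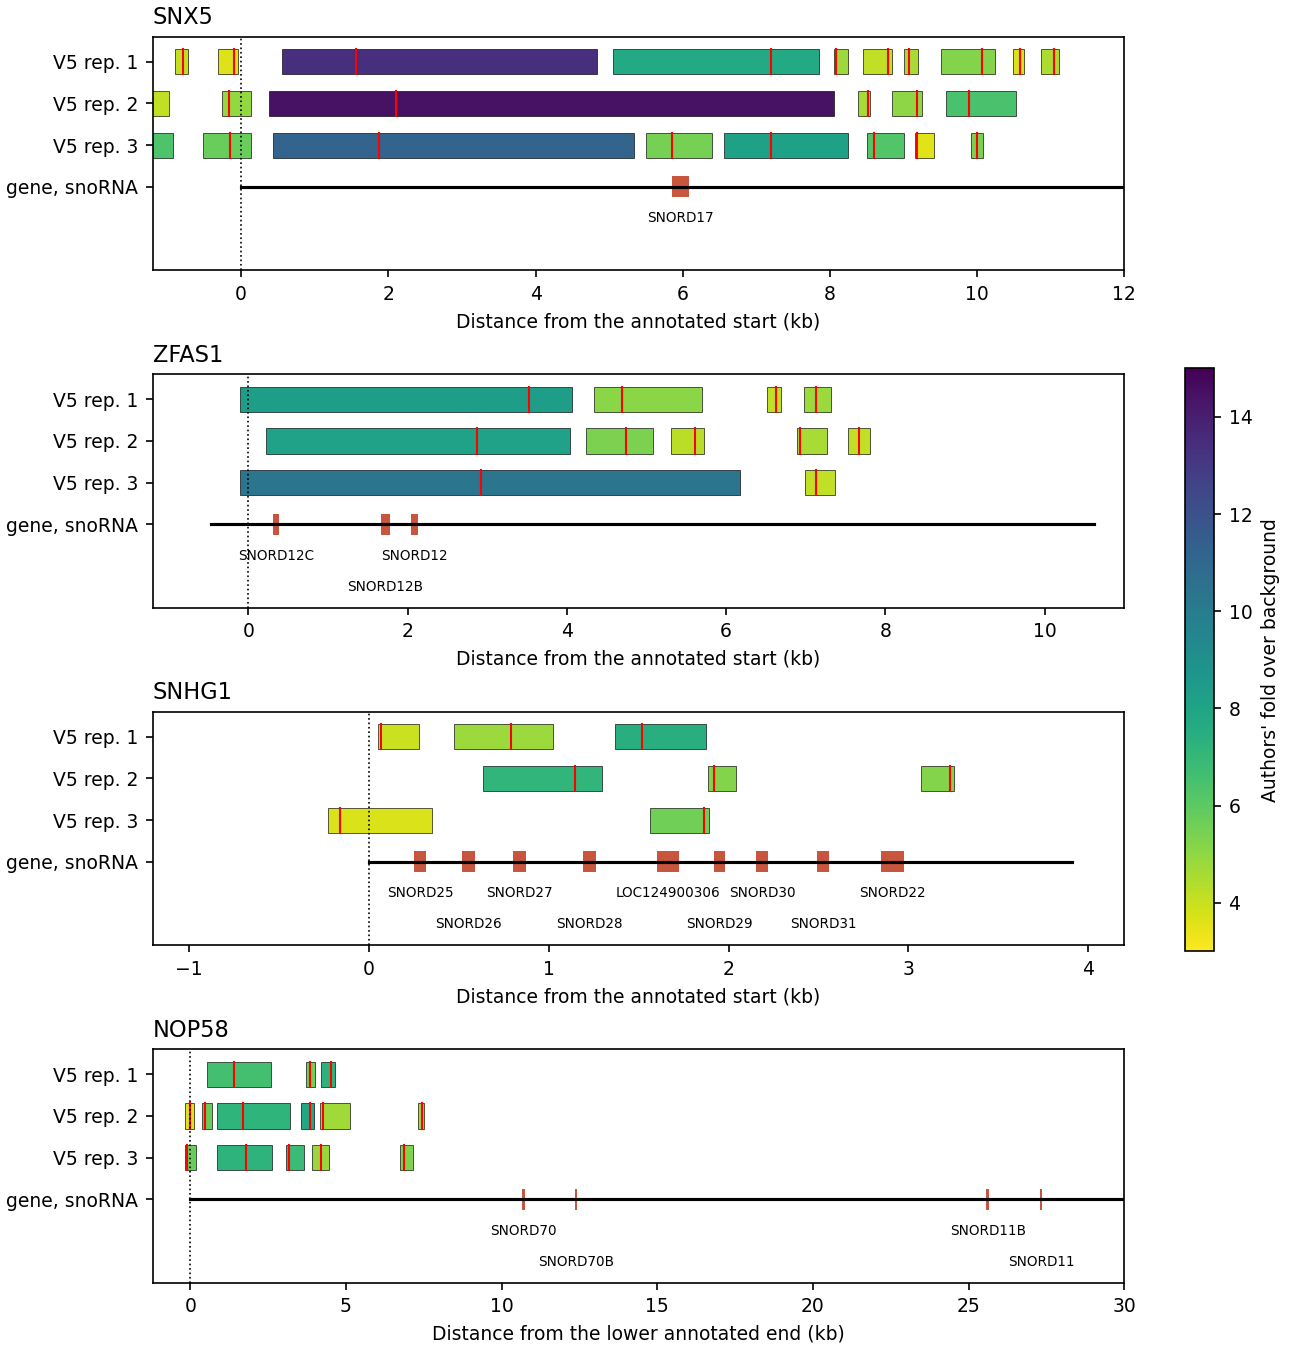
Each panel shows 1 gene with its V5 peaks by library (boxes, coloured by the authors' fold over background; red lines, summits), the gene as a black line and its snoRNA genes as orange boxes, against distance in kb from the annotated start (NOP58: lower annotated end; SNX5 and NOP58 are cut at the right). Peaks covered SNORD17 in SNX5 and all 3 snoRNA genes of ZFAS1 in every library, some of those in SNHG1, and none in NOP58.

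Of the 38 snoRNA genes inside the hosts of the list, 7 were under a peak in at least 2 libraries, all in SNX5, ZFAS1 or SNHG1, and 4 in all 3 libraries. Over the 1199 annotated snoRNA genes, 0.667% were covered in at least 2 libraries, which is 8 genes. The only one outside the list was SNORA73A, inside SNHG3 and RCC1. Of the 72 peaks at the 10 genes over the 3 libraries, 13 touched a snoRNA gene. With the summit required inside the snoRNA gene, none was called in 2 libraries. The count of 7 fell to 4 without replicate 1, since SNORD25, SNORD27 and LOC124900306 were covered in replicate 1 and 1 other library.

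NOP58 and NOP56 encode paired core proteins of box C/D snoRNA particles and are hosts themselves. NOP58 (chromosome 2, 202265763 to 202303661) had a strongest peak with folds of 7.30, 7.85 and 7.26, at a mean percentile of 90.3 ± 0.45 (SD, n = 3). The libraries put it at different places, with summits 4516, 3843 and 1796 bp from the lower end. Each library also had a peak with its summit 1415, 1707 and 1796 bp from that end (folds 6.58, 7.22 and 7.26), which in replicate 3 was the strongest one itself. The NOP58 peaks covered 7.51, 11.5 and 9.18% of the span and all lay within 7.51 kb of the lower end. Its 4 snoRNA genes, SNORD70, SNORD70B, SNORD11B and SNORD11, begin 10.7 kb or more from that end and had no peak. The nearest peak was 3157 bp from SNORD70. Directly over the lower end stood a further peak in replicate 2 (fold 3.65) and replicate 3 (fold 5.74), not in replicate 1.

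NOP56 (chromosome 20, 2652632 to 2658393) had a single peak per library, 194 to 248 bp wide. By fold it was the weakest of the 7 genes' strongest peaks in replicates 1 and 2, but stood above NCL and SNHG1 in replicate 3. Folds were 3.82, 5.25 and 6.53, at percentiles of 11.9, 51.0 and 83.7 (mean 48.8 ± 35.9, SD, n = 3), so the libraries ranked it very differently. In replicates 1 and 3 the peak lay just before the start, with summits 169 and 153 bp upstream. In replicate 2 it lay 989 bp downstream of the start and did not overlap the others. None of the 5 snoRNA genes of NOP56 (SNORD110, SNORA51, SNORD86, SNORD56 and SNORD57) was covered. The 250 bases before the start are shown because NOP56 alone had its strongest peak there in 2 libraries. Capitals mark the 17 bases from the lower to the higher of the 2 summits.
NOP56 (chr20:2652382-2652631, plus strand): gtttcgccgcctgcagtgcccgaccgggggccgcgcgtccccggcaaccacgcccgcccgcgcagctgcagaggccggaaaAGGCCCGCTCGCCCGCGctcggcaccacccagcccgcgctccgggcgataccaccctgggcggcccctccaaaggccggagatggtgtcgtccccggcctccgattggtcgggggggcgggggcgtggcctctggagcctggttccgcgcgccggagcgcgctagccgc

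NPM1 and NCL encode abundant nucleolar proteins, nucleophosmin and nucleolin, that act in ribosome assembly and in ribosomal RNA synthesis. NPM1 holds no annotated snoRNA gene (chromosome 5, 171387116 to 171410900). It nevertheless ranked beside SNX5 and ZFAS1, with folds of 10.5, 10.8 and 8.94 and a mean percentile of 97.9 ± 1.16 (SD, n = 3). Its strongest peak was 1515, 1698 and 3383 bp wide. Summits lay 1837, 1461 and 1243 bp downstream of the second annotated start, and no library had a peak within 500 bp of either start. The first base under a NPM1 peak in any library was 585 bp downstream. All 3 libraries shared 1622 bp at this gene.

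NCL (chromosome 2, 231453531 to 231464484) had smaller peaks, with a strongest fold of 6.72, 6.61 and 5.05 at percentiles of 87.1, 79.7 and 50.6. A peak inside the gene, with its summit 846, 1133 and 1109 bp downstream of the start, was present in every library, although the peaks of replicates 1 and 2 did not overlap. A separate peak ended just before the start in replicate 2 (fold 4.34) and replicate 3 (fold 5.05), and in replicate 3 it was the stronger one. The 3 NCL snoRNA genes, SNORD82, SNORD20 and SNORA75, had no peak, and the nearest was 2616 bp from SNORD82.

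**Figure D3:**
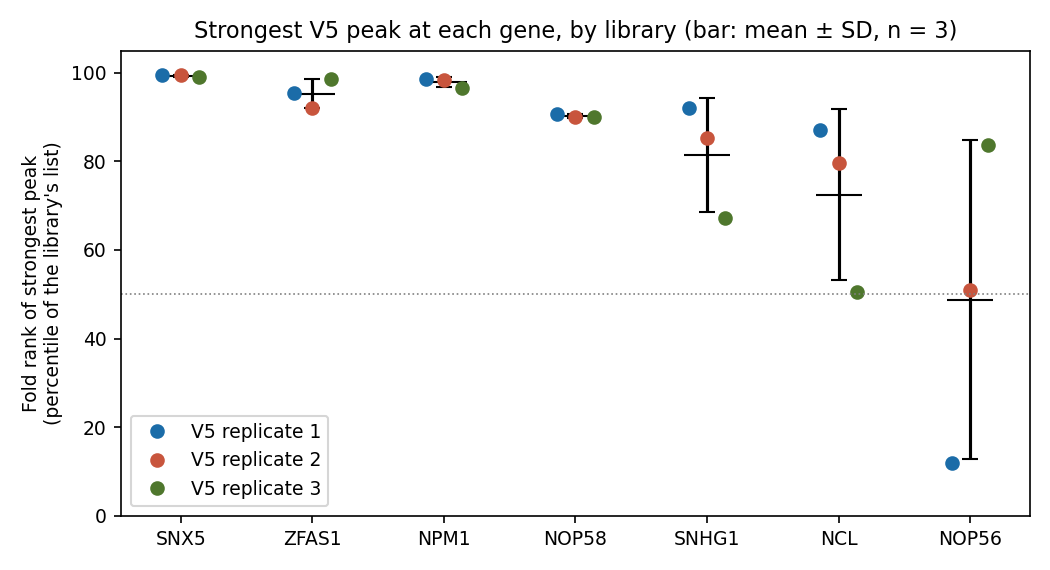
Points give, for each V5 library, the rank by fold of the strongest peak at a gene as a percentile of that library's list, and bars the mean ± SD (n = 3); the dotted line is the median peak. SNX5, ZFAS1, NPM1 and NOP58 stay near or above the 90th percentile in every library, while NOP56 ranges from 11.9 to 83.7.

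By the rule of 1000 bp, 6 of the 7 genes with peaks had a peak at the start in all 3 libraries, the exception being NPM1, with 1 library. For NOP58 either end of the gene was allowed. Over all protein-coding and lncRNA genes, 1.07% had a start peak in at least 2 libraries. At 250 bp from the start the count stayed at 6 in at least 2 libraries, against 0.691% of genes, but only SNX5 and ZFAS1 then had such a peak in all 3. With only peaks whose -log10 q reached 5, the start count was 3. The summit of the strongest peak seldom lay near the start, although a wide peak could reach over the start, as at ZFAS1 in replicates 1 and 3. Of the 21 strongest peaks (7 genes in 3 libraries), 18 had a summit more than 500 bp downstream of the start and 16 more than 1000 bp. The other 3 were those of NOP56 in replicates 1 and 3 and of NCL in replicate 3. Strongest peaks at other genes often lay downstream too, and the difference was not tested. Of 787 strongest peaks at 313 other genes of like length with a peak in at least 2 libraries and a known start, 57.7% had a summit more than 500 bp downstream and 28% within 500 bp. Counted by gene, 153 (48.9%) of these 313 had it more than 500 bp downstream in every library with a peak. Of the 7 genes here, all but NOP56 and NCL did, with NOP58 measured from its lower end.

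**Figure D4:**
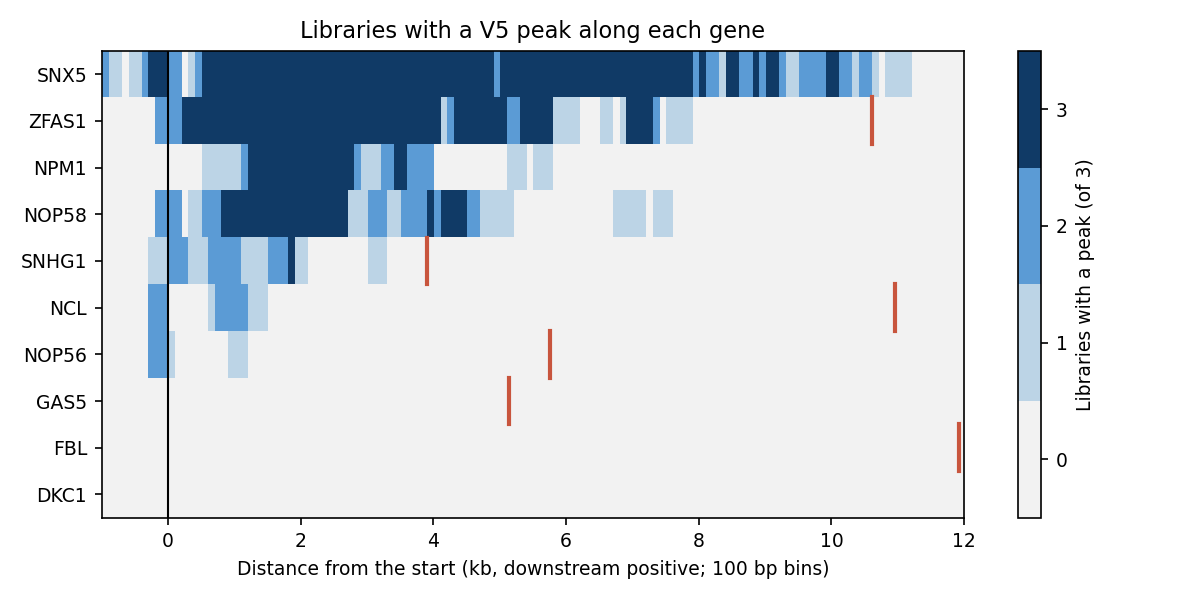
Shading gives the number of V5 libraries (0 to 3) with a peak in each 100 bp bin, by distance in kb from the annotated start (NOP58: lower annotated end; NPM1: downstream start), and the orange ticks mark the far end of genes that end within the plot. Downstream of the start, peaks reached 11.1 kb in SNX5, 7.80 kb in ZFAS1 and 7.51 kb in NOP58, some peaks of SNX5, NCL and NOP56 lay before it, and GAS5, FBL and DKC1 are empty; peaks sharing a bin need not share bases.

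Most bases under peaks were shared by all 3 libraries at ZFAS1 and SNX5, but not at NPM1 and NOP58. Of all bases under a peak of any library, 72.5% at ZFAS1, 64.7% at SNX5, 42.8% at NPM1 and 36.3% at NOP58 were under peaks of all 3. At SNHG1, NCL and NOP56 the share was 0%. The 72 peaks at the 10 genes made up 1.56, 0.978 and 1.17% of the peaks of replicates 1, 2 and 3, and 4.26, 3.12 and 4.35% of the bases under peaks. Among the peaks wider than 2000 bp, 4 of 20, 3 of 16 and 3 of 16 were at these genes, at SNX5, ZFAS1, NOP58 and NPM1. Median fold over all their peaks was 5.04, 5.24 and 5.67, against 5.01, 5.25 and 5.03 for the whole lists. It was near the list median in replicates 1 and 2 and above it in replicate 3, at a percentile of 68.9.

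Without a peak were GAS5, a noncoding host with 11 snoRNA genes in 5.14 kb, FBL, the methyltransferase of box C/D particles, and DKC1, the pseudouridine synthase of box H/ACA particles and host of SNORA36A and SNORA56. The nearest peaks to GAS5 were more than 4 Mb away, at 4120, 4120 and 4720 kb in replicates 1, 2 and 3. Those to FBL were 1070, 433 and 757 kb away, and those to DKC1 221, 22.2 and 1120 kb. With depth unknown, a signal at these genes below the authors' threshold was not detectable in the lists. The window did not change which genes had a peak in at least 2 libraries. With the span alone NOP56 had a peak in 2 libraries, since its replicate 1 peak lay 46 bp outside the span. At the genes with peaks, the nearest peak outside the window was 1070 bp from SNX5 (replicate 1, fold 6.29, inside MGME1), 2746 bp from SNHG1 (replicate 3, fold 4.25) and 89623 bp or more from the others. The farthest one inside the window lay 977 bp outside the SNX5 span (replicate 2, fold 4.16).

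The chromosomes of these genes differed in how often genes of like length had a peak in at least 2 libraries. The share was 3.48% on chromosome 20, the second highest, where SNX5, ZFAS1 and NOP56 lie, 2.17% on chromosome 2 (NOP58 and NCL), 2.53% on chromosome 5 (NPM1) and 1.93% on chromosome 11 (SNHG1). The genes without a peak lie on chromosome 1 (2.46%), chromosome 19 (0.895%) and the X chromosome (0.338%). The part of the chromosome in these results was not tested.

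Other snoRNA hosts and nucleolar protein genes were counted by the same rule. The span of 692 other genes holds an annotated snoRNA gene, on either strand. Of these, with overlapping genes each counted, 61 (8.82%) had a peak in at least 2 libraries and 36 in all 3. Without replicate 2 the count was 39. These genes are long, with a median of 66.3 kb against 11.5 kb in the list of 10, and many hold only a predicted snoRNA gene. Among the 219 within the length range of the 10 genes, 17 (7.76%) had a peak in at least 2 libraries. Among the 123 of that range that hold a SNORA or SNORD gene, 16 (13%) had such a peak. The share over all protein-coding and lncRNA genes of that range was 2.06%. Among the highest-ranked were DLGAP1, TRIM24, SEC31A, TOMM20 with the overlapping LOC105379283, HSPD1, SNX29, RPL13A and ANXA4 with peaks in 3 libraries, and OSBPL9, BCAS3, CA5BP1-CA5B and NAV2 with peaks in 2. Several of these, such as DLGAP1 (959 kb) and NAV2 (776 kb), are very long genes whose peaks need not lie near the snoRNA gene. HSPD1, a mitochondrial chaperone gene, had folds of 8.12, 6.95 and 8.24. RPL13A, a ribosomal protein gene with 4 box C/D snoRNA genes, had folds of 6.67, 6.04 and 8.62. None of the snoRNA genes in these hosts was covered in 2 libraries.

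Among the 23 genes named SNHG other than SNHG1, 3 (13%) had a peak in 3 libraries: SNHG4 (folds 5.17, 5.67 and 7.61), SNHG3 (5.31, 6.62 and 5.21) and SNHG32 (3.69, 4.58 and 4.25). Over all lncRNA genes, 1.6% had a peak in at least 2 libraries. SNHG4 overlaps MATR3 and LOC124901081, and SNHG3 overlaps RCC1, which had the same strongest folds. Peaks at these loci cannot be assigned to a single gene. Of 100 other nucleolar protein genes, 5 (5%) had a peak in at least 2 libraries. This is near the 3.75% of all protein-coding genes, so nothing is read from the count. POLR1B, a subunit of RNA polymerase I, had the strongest (folds 18.5, 19.7 and 18.1). TAF1D, a subunit of the RNA polymerase I promoter factor SL1 and host of 8 snoRNA genes, had folds of 5.93, 6.61 and 5.13. WDR43 and RRP7A, of the small-subunit processome, had peaks in 3 libraries, and MPHOSPH10, of the same assembly, in 2. The other genes of the nucleolar list had a peak in at most 1 library. TAF1D and WDR43 hold snoRNA genes and are also counted among the other snoRNA hosts above.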

How the data were processed

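Peaks of the 3 V5 libraries were analysed. The 3 control libraries entered no comparison. The genome build was GRCh38, per the submitters' processing notes. The aligner and the settings of the peak calling were not given in the sources used here. The fold of a peak is a ratio as the authors deposited it, over the background of their caller, and the deposited -log10 p and -log10 q were taken as given. The deposited score is 10 times the -log10 q without its decimals and entered no result. Summit offsets were read as the authors deposited them. Folds were used only within a list, as values or as percentiles.

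A gene was called with a peak overlapping its RefSeq span or the 1000 bp beside it by at least 1 bp in at least 2 libraries. Starts came from the RefSeq promoter table, or from both ends of a gene without an entry. No test was run, since members and lists were chosen with earlier results of these data known. The text names all members, MGME1, snoRNA genes touched by a peak and, of each other list, up to 10 genes with a peak in 3 libraries and up to 4 with a peak in 2, by mean percentile. A gene that this rule names is not reported here. Genes named SNHG, snoRNA genes without a peak and sequence features were named after values were seen. The table places some genes of unlocalised sequences on chromosomes, and these were not separated. Overlap calls were tested on simulated peaks. Alternatives changed the window, the peak threshold, the overlap rule and the libraries. Tables were made with pandas 2.3.3 and numpy 2.4.6 under Python 3.11.15, and plots with matplotlib 3.10.9.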

Additional observations from a re-analysis of the deposited data

How the results depend on the processing

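The count of 7 genes with a peak held in every setting tried except -log10 q of at least 5, which left 6 (NOP56 kept 1 library). Several of these settings could not have changed it. All 7 genes had a peak in all 3 libraries and the others had none nearby. Leaving out a replicate, asking for 1 or 3 libraries, or widening the window therefore had a fixed outcome. The 6 genes with a start peak became 7 with a 2000 bp window or with any library, 5 with the summit inside the window or a fold of at least 5, and 3 with -log10 q of at least 5. The 7 covered snoRNA genes became 4 with -log10 q of at least 5 or in all 3 libraries, 4 to 6 with a replicate left out, and 0 with the summit inside the snoRNA gene. Their count was 6 with -log10 q of at least 3 and 5 with a fold of at least 5. It rose to 10 within 250 bp of the snoRNA gene, and to 10 with any library. The 61 other hosts became 34 with -log10 q of at least 5, 40 with a fold of at least 5, 122 with any library, 36 with 3 libraries, 39 to 50 with a replicate left out (39 without replicate 2), and, in settings chosen after the data were seen, 36 with SNORA or SNORD genes alone and 17 in the length range of the described genes. The 5 other nucleolar genes became 10 with any library. Gene by gene, 65 of 70 values of the number of libraries stayed the same over the other windows, thresholds and overlap rules, and the 5 that changed were at NOP56, NCL and SNHG1. Many of the 65 could not have changed. GAS5, FBL and DKC1 had no peak to lose and none within reach of any window tried, and genes with peaks in 3 libraries could not rise. No paired analysis was possible because the controls have no peak list here and no test was run. The lists give no depth, so weak signal at GAS5, FBL and DKC1 could not be assessed.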

Other observations

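V5 peaks were also listed over some annotated copies of the ribosomal RNA genes, which the nucleolus forms around. For all annotated genes, 1.01% had a peak over the span or within 1000 bp in all 3 libraries. Of the 3 copies of the 45S precursor gene annotated on chromosome 21, RNA45SN3 (8389035 to 8402343) had 1 peak per library, with folds of 7.22, 9.996 and 8.43, at percentiles of 90.2, 97.5 and 95.4 in the lists, and summits 7704, 7706 and 7704 bp from the lower end of the gene. RNA45SN2 (8205988 to 8219302) had 2, 2 and 3 peaks, the strongest with folds of 5.25, 6.23 and 9.65 and summits 2447 to 2513 bp from the lower end. RNA45SN1 had none. No 18S or 5.8S gene of these copies was under a peak, and a peak over a 28S gene was found once, at RNA28SN2 in replicate 3 (fold 5.94). The copies are nearly identical, so which of them a peak belongs to is uncertain. Whether such repeated sequence gives peaks without binding was not tested.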
